A study of Ovis aries with 6 samples.

Results

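S100A8 and S100A9 encode the subunits of calprotectin, and this account follows their transcripts in the cells shed into sheep milk. Every row of the deposited RPKM table whose RefSeq accession belongs to one of these 2 genes was kept, which gave 1 transcript of each gene, XM_004002523.2 for S100A8 and XM_012181723.1 for S100A9, among 49705 transcripts in all. Both had a mean of at least 1 RPKM (reads divided by transcript length and by the size of the library) over the 6 libraries and were among the 15891 transcripts tested. There were 3 linseed libraries and 3 control libraries. The linseed libraries came from Comisana ewes given hay, grass and a concentrate with extruded linseed at 20% of dry matter for 3 weeks. The control libraries came from the same 3 ewes after 3 weeks on grass hay and a commercial concentrate. A stage of 90 days of lactation is listed for both groups, with no separate day for each sampling. Each library was made from the cell pellet of 250 ml of milk of 1 ewe. The protocols place the milk collections at the start and the end of the trial and name no ewe kept on the control diet throughout, so diet and the time between the samplings cannot be told apart.

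Calprotectin is a heterodimer of S100 proteins, small calcium-binding proteins with EF-hand motifs. It is known in humans and mice as an abundant cytosolic protein of neutrophils. Monocytes and, under inflammation, epithelial cells make it as well. The released protein withholds zinc and manganese from microbes and acts as a danger signal through Toll-like receptor 4 (TLR4) and the receptor AGER, and in dairy animals it is found in milk during inflammation of the udder.

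Both genes had higher values with linseed in each of the 3 ewes, a pattern held by 23% of all transcripts tested, while 26.2% were lower in all 3. Since these are bulk samples, more cells of a type and more RNA per cell cannot be told apart. S100A8 was at 1352, 1119.8 and 1067 RPKM in the linseed libraries of sheep 1, 2 and 3, and at 195, 440.0 and 401 RPKM in their control libraries. The linseed libraries lay close together, and the lowest of them was 2.43 times the highest control library. The means were 1179.8 ± 152 RPKM with linseed and 346 ± 132 RPKM with the control diet (SD, n = 3 each), a ratio of 3.41.

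S100A9 was at 1789.9, 1383 and 934 RPKM in the linseed libraries of sheep 1, 2 and 3, and at 222, 300.3 and 297 RPKM in their control libraries. Here the control libraries were the more alike, with a range of 1.35 times against 1.92 times among the linseed libraries, and the groups again did not overlap. Every linseed library stood above every control library in 13.3% of the transcripts tested, and below in 7.83%. The means were 1369 ± 428 RPKM with linseed and 273 ± 44.0 RPKM with the control diet (SD, n = 3 each), a ratio of 5.01. The lowest linseed value was 3.11 times the highest control value.

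The size of the difference varied between ewes. On the log2(RPKM + 1) scale, S100A8 differed by 2.78 in sheep 1, 1.35 in sheep 2 and 1.41 in sheep 3. S100A9 differed by 3.00, 2.20 and 1.65 in the same order. Sheep 1 had the largest difference of both genes, with the highest linseed value and the lowest control value of each. In RPKM these differences were 6.92, 2.55 and 2.66 times for S100A8 and 8.05, 4.61 and 3.15 times for S100A9.

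**Figure D1:**
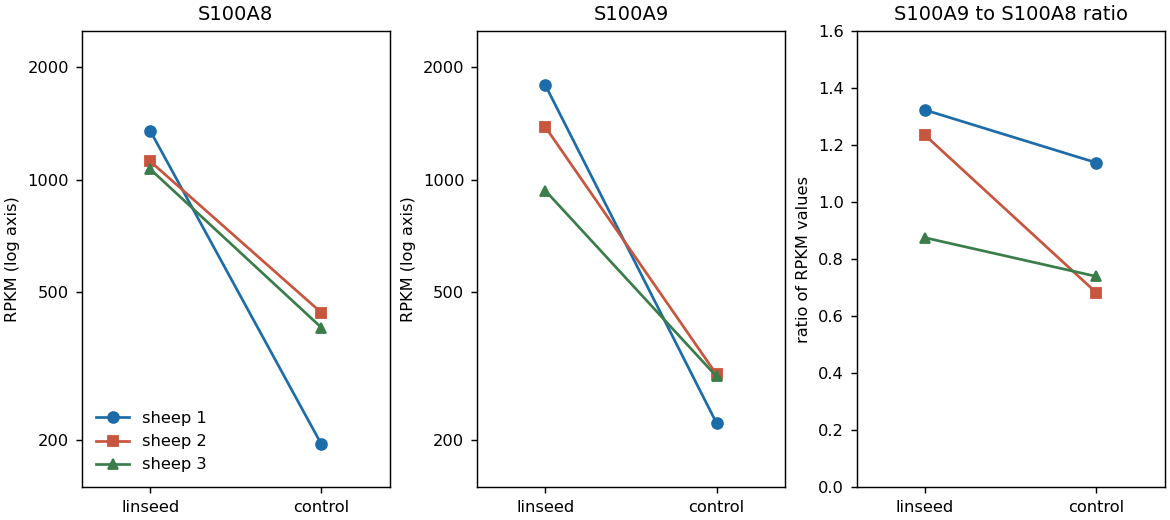
RPKM of S100A8 and of S100A9 (log axes) and the ratio of the 2 values (linear axis) in each library, with linseed left and control right; a line joins the 2 libraries of 1 ewe. Every line is lower at its control end in all 3 panels, and the linseed and control values of each gene do not overlap.

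Neither difference passed the test across all transcripts. limma, fitted without the sheep as a block, gave S100A9 a log2 change of 2.28 ± 0.58 (SE) with a 95% interval of 1.01 to 3.56 and an adjusted p of 0.263 (n = 3 libraries a group). S100A8 had 1.85 ± 0.60, an interval of 0.53 to 3.16 and the same adjusted p of 0.263. That fit called 0 of 15891 transcripts higher and 0 lower with linseed (0% and 0%). Unadjusted p was under 0.05 for 2464 transcripts, among them 8.5% of all tested that were higher with linseed, S100A8 and S100A9 included. Run as voom on recovered reads, limma made 0 calls too, with 2186 transcripts at an unadjusted p under 0.05. A fit blocked on sheep called 1.28% of the transcripts as higher (203) and 1.34% as lower (213). Neither calprotectin gene was among them, with an adjusted p of 0.0598 for S100A9 and 0.0968 for S100A8 in that limma fit. For each gene alone, the two-sided exact permutation p was 0.1, which is the smallest that 3 libraries against 3 can give. That test ignores the pairing of libraries by ewe. Within ewes the exact sign-flip p was 0.25 for each gene, also the smallest possible.

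The size of the changes can be set beside the whole table. Of all transcripts tested, 1.54% had a log2 change at least as high as that of S100A9, and 3.82% one at least as high as that of S100A8. The median log2 change over all transcripts was -0.12.

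Calprotectin transcripts were abundant under both diets. Among all 49705 transcripts, S100A9 ranked 84, 104 and 146 by RPKM in the linseed libraries of sheep 1, 2 and 3 and 214, 258 and 263 in their control libraries. S100A8 ranked 103, 122 and 129 with linseed and 240, 190 and 200 with the control diet. Summed, the 2 genes came to 3142, 2503 and 2001 RPKM with linseed and 418, 740.3 and 698 RPKM with the control diet in sheep 1, 2 and 3. Calprotectin reads made up 0.197%, 0.156% and 0.122% of the library totals with linseed, and 0.0259%, 0.0441% and 0.0419% with the control diet. In each ewe the linseed sum was above the control sum, and sheep 1 stood at both ends of the range. The 2 genes together took 0.299%, 0.269% and 0.279% of all RPKM with linseed, against 0.0514%, 0.0841% and 0.124% with the control diet. The linseed shares were nearly alike in the 3 ewes, while the control share was lowest in sheep 1 and highest in sheep 3.

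Counting error was small beside the spread between libraries. Library totals solved from the steps of the RPKM values ran from 4941935 to 19912996 reads with linseed and from 8805705 to 22644050 with the control diet. S100A8 had 3455, 3461 and 10988 reads with linseed and 2287, 2003 and 2200 reads with the control diet. S100A9 had 6298, 5887 and 13241 reads with linseed and 3586, 1883 and 2240 reads with the control diet. The linseed library of sheep 3 had the most reads of both genes and the lowest linseed RPKM of both, and was the deepest of the linseed libraries. The lowest count of either gene was 1883 reads, of S100A9 in the control library of sheep 2, for which counting error alone gives an exact Poisson interval of 287 to 314 RPKM (95%). The linseed library held fewer reads than the control library in sheep 1 and 2 and more reads in sheep 3, and both genes were higher with linseed in all 3 ewes.

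The levels of the 2 chains stayed close to each other under both diets. The ratio of S100A9 to S100A8 in RPKM was 1.32, 1.24 and 0.875 in the linseed libraries of sheep 1, 2 and 3, and 1.14, 0.683 and 0.739 in their control libraries. The groups overlapped, because the control ratio of sheep 1 exceeded the linseed ratio of sheep 3. On the log2 scale the ratio averaged 0.17 ± 0.32 with linseed and -0.27 ± 0.40 with the control diet (SD, n = 3 each), a difference of 0.44 with a two-sided exact permutation p of 0.2. Within ewes the ratio was higher with linseed in 3 of 3, by 0.22, 0.85 and 0.24 log2 units in sheep 1, 2 and 3 (exact sign-flip p = 0.25, the smallest possible).

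Other S100 genes were compared next, since many of them lie beside S100A8 and S100A9 in one cluster of the genome. Of 18 listed genes, 13 were matched to the table and 10 were measured, that is, had a mean of at least 1 RPKM. Of these 10, 6 were higher with linseed in all 3 ewes and 0 lower, against 23% and 26.2% of all transcripts tested. Among tested transcripts of up to 800 nt, 38.0% were higher in all 3 ewes. The median log2 change of the 10 genes was 1.21, against -0.12 for all transcripts. Under the other scalings that median ran from 0.73 to 1.49. In limma 0 passed without the block. With it 2 passed as higher, S100A4 and S100A5, as did 1.28% of all transcripts tested.

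S100A4, which binds non-muscle myosin and is made by many motile cells, was at 2712, 3722 and 2441 RPKM with linseed and 121, 1102 and 314 RPKM with the control diet in sheep 1, 2 and 3. All linseed libraries stood above all control libraries. Its log2 change was 3.06 ± 0.78 (limma adjusted p = 0.263, or 0.0441 with the sheep as a block). S100A5 had 101, 55.0 and 14.5 RPKM with linseed and 9.12, 17.9 and 2.78 RPKM with the control diet, so its groups overlapped although each ewe was higher with linseed (limma adjusted p = 0.269, or 0.0481 with the block). The sources used here do not say how reads shared by similar S100 transcripts were counted.

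The other S100 genes differed among themselves. S100A11, abundant in all 6 libraries, had 1294, 1617 and 2190.3 RPKM with linseed and 1010.4, 1636 and 1002.4 RPKM with the control diet, a log2 change of 0.49 ± 0.58 whose sign turned with quantile normalization (-0.17) and with the length trend removed (-0.18). S100A2, S100A10 and S100B had changes of 0.18 ± 1.31, 0.25 ± 0.64 and -0.43 ± 0.66, all within their standard errors, and the signs of S100A2 and S100A10 also turned under those 2 settings, that of S100A2 also with milk proteins left out of the totals. S100A13, S100A1, S100A16 and S100A14 were higher in each ewe, with log2 changes of 2.39 ± 0.94, 1.27 ± 0.68, 1.75 ± 1.16 and 1.15 ± 1.09 and groups that overlapped. S100A14 and S100A16 were lowest in sheep 3 under both diets, with S100A14 at 274, 510.3 and 22.8 RPKM with linseed and 82.4, 158 and 22.0 RPKM with the control diet.

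Between S100A9 and S100A8 in the RefSeq gene order stands a protein-coding locus that the gene table gives only as LOC101103771; it was looked up after the values of the 2 genes were known. It was at 1853, 2415 and 2339 RPKM with linseed and 434, 1588 and 582 RPKM with the control diet in sheep 1, 2 and 3. It exceeded both calprotectin genes in all 6 libraries, and its groups did not overlap. Its log2 change was 1.57 ± 0.65 (limma adjusted p = 0.296, or 0.147 with the block). The nearest genes on the other side of S100A9, PGLYRP3 and PGLYRP4, which encode peptidoglycan recognition proteins, stayed at or under 2.42 RPKM in every library.

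**Figure D2:**
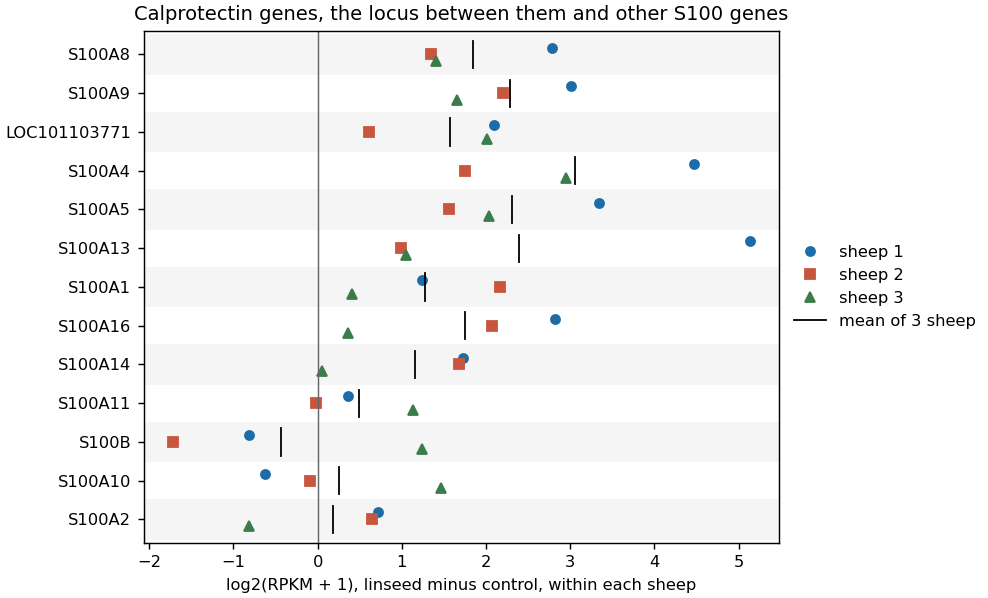
Difference in log2(RPKM + 1) between the linseed and the control library of each ewe, for the calprotectin genes, the locus between them and the other measured S100 genes; symbols are ewes and the bar is their mean. All 3 ewes lie right of 0 for S100A8, S100A9, LOC101103771, S100A4, S100A5, S100A13, S100A1, S100A16 and S100A14.

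Neutrophil genes were set beside calprotectin next. Of 26 listed surface and activation genes, 18 were matched and 17 measured. With linseed 4 of the 17 were higher and 6 lower in all 3 ewes, where 23% and 26.2% of all transcripts tested were, and the median log2 change was -0.52, below 0 under each scaling tried. In limma 0 passed without the block and 1 passed with it, NAMPT, which makes a precursor of NAD and was lower (-2.40 ± 0.67, adjusted p = 0.0455 with the block). Summed over the list, RPKM came to 286, 372 and 1743 with linseed and 308, 330.0 and 2209 with the control diet in sheep 1, 2 and 3. Sheep 3 had the highest sum of this list under both diets. The part of neutrophil content in the calprotectin values was not tested.

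Single markers can be set beside these sums. ITGAM, the alpha chain of the integrin Mac-1, was at 1.58, 2.08 and 11.9 RPKM with linseed and 1.90, 7.72 and 15.3 RPKM with the control diet, lower in 3 of 3 ewes (-0.67 ± 0.82). CXCR2, the receptor of CXCL8 and related chemokines, was higher in 3 of 3 ewes, at 4.03, 9.78 and 9.24 RPKM with linseed and 0.0977, 4.99 and 7.99 RPKM with the control diet (1.08 ± 0.80), and neither gene passed limma with or without the block. SELPLG, the selectin ligand PSGL-1, had 87.1, 88.8 and 126 RPKM with linseed and 3.60, 21.4 and 80.5 RPKM with the control diet, with groups that did not overlap (2.30 ± 0.91, adjusted p = 0.289, or 0.0657 with the block).

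Of 27 listed granule genes, 14 were matched and 6 measured, and the collagenase gene MMP8 and OLFM4, both of neutrophil secondary granules in humans, were listed at 0 in every library. RHOA, a GTPase gene that every cell uses, was listed at 0 in all 3 linseed libraries and at 0.379, 0.781 and 1.30 RPKM in the control libraries of sheep 1, 2 and 3, so a listed 0 need not mean that a gene was silent. MMP9, a gelatinase stored in neutrophil granules, was higher with linseed in 3 of 3 ewes, at 34.5, 57.4 and 133 RPKM with linseed and 1.69, 19.6 and 62.8 RPKM with the control diet (2.10 ± 1.03, limma adjusted p = 0.345, or 0.0662 with the block). The lysozyme gene LYZ and the lactoferrin gene LTF, which milk epithelium also makes, each differed in sign among the ewes. Summed over the 14 matched genes, RPKM came to 683, 476 and 743 with linseed and 2607, 781 and 374 with the control diet, with overlap. Most of the sum of control sheep 1 came from CHI3L1 and LTF, at 1428 and 1146.5 RPKM. LYZ, at 547 RPKM, made up most of that of control sheep 2. The median log2 change of the 6 was -0.01, and ran from -0.32 with quantile normalization to 0.02 with median-of-ratios scaling. MPO and ELANE, the myeloperoxidase and elastase of neutrophils, are not analysed here.

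**Figure D3:**
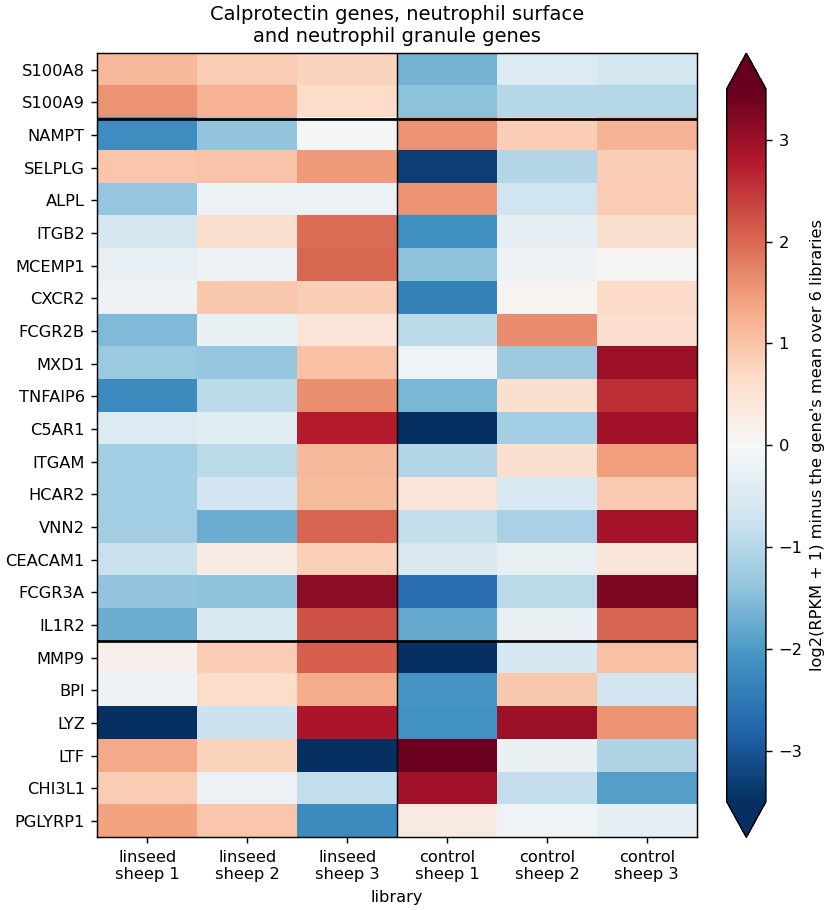
Levels of the calprotectin genes (top), neutrophil surface and activation genes (middle) and neutrophil granule genes (bottom) in each library, as log2(RPKM + 1) minus the gene's mean over the 6 libraries; red is above and blue below that mean. The calprotectin rows split by diet, and many surface genes are highest in the 2 libraries of sheep 3.

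Monocyte and macrophage markers were also higher in part. Of 22 listed genes, 14 were matched and 11 measured. Of the 11, 6 were higher and 1 lower in all 3 ewes, against 23% and 26.2% of all transcripts tested. Their median log2 change was 1.55. Without the block, limma called 0 of them; TREM2, a lipid receptor of macrophages, passed in the blocked limma fit (adjusted p = 0.0401). The summed RPKM of the list was 2653, 3658 and 6022 with linseed and 717, 2830.2 and 1584 with the control diet, so the groups overlapped. TYROBP, the adaptor of TREM2 and of other myeloid receptors, was at 1431, 1592 and 2531 RPKM with linseed and 51.0, 711 and 585 RPKM with the control diet. C1QA was at 80.9, 64.5 and 78.2 RPKM with linseed and 1.67, 53.3 and 4.90 RPKM with the control diet. Its groups did not overlap (2.98 ± 0.95, limma adjusted p = 0.263, or 0.0510 with the block). CD68, a lysosomal protein of macrophages, was higher in 3 of 3 ewes (1.55 ± 0.75). The mannose receptor gene MRC1 was lower in 3 of 3 (-1.61 ± 0.78), and CD14 differed in sign between ewes and between scalings. MARCO, SIGLEC1 and CX3CR1 did not exceed 0.518 RPKM. The part of macrophage content in the calprotectin values was not tested.

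Markers of the other cell types of milk were read in the same way. Of 10 measured mammary epithelial genes, 2 were higher and 3 lower in all 3 ewes, against 23% and 26.2% of all transcripts tested. Their summed RPKM was 997, 1547 and 112 with linseed and 1089, 622 and 457 with the control diet. In limma 0 passed without the block and 1 passed with it, CD24, which was lower (-2.44 ± 0.61, adjusted p = 0.0461 with the block). EPCAM was lower in all 3 ewes (-1.82 ± 1.04), while KRT8 was higher in sheep 1 and 2 and lower in sheep 3 (1.76 ± 1.10). The 2 genes higher in all 3 ewes were KRT14 (1.25 ± 1.16) and KRT17 (1.42 ± 1.32), with groups that overlapped. Milk protein genes took 30.4%, 23.8% and 1.29% of the reads with linseed and 48.3%, 36.1% and 4.47% with the control diet in sheep 1, 2 and 3, lower with linseed in each ewe. With these reads left out of the totals, the log2 change was 2.04 for S100A9 and 1.61 for S100A8, while the median over all transcripts moved to -0.28. Of 9 measured T and NK cell genes 0 were higher and 2 lower in all 3 ewes. Their summed RPKM was 102, 76.9 and 184 with linseed and 11.7, 198 and 812 with the control diet. CD247 was lower in all 3 ewes (-2.06 ± 1.14), and CD3E differed in sign between ewes (0.21 ± 1.22). B and plasma cell genes were low, and no gene of the eosinophil and mast cell list was measured. Whether these shifts bear on the calprotectin values was not tested.

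Of the receptors through which calprotectin is known to act, TLR4 was at 1.64, 0.322 and 21.4 RPKM with linseed and 2.11, 0.437 and 81.5 RPKM with the control diet in sheep 1, 2 and 3. It was lower with linseed in each ewe and highest in sheep 3 under both diets (-0.75 ± 1.41). The differences were -0.24, -0.12 and -1.88 log2 units in sheep 1, 2 and 3. Those of sheep 1 and 2 were small and at low values, and counting intervals were not computed for this gene. AGER had 2.34, 0.553 and 0.995 RPKM with linseed and 0.0729, 0.188 and 0.467 RPKM with the control diet, under the mean of 1 RPKM needed for the test. BSG, a surface glycoprotein that binds S100A9 in human cells, had groups that did not overlap, at 204, 233 and 200.2 RPKM with linseed and 72.9, 116 and 91.0 RPKM with the control diet (1.20 ± 0.57, adjusted p = 0.336 in limma). Of the 14 measured genes listed for receptors and TLR4 signalling, 4 were higher and 3 lower in all 3 ewes, against 23% and 26.2% of all transcripts tested. CD68, 1 of the 4, and CD14 were also counted in the macrophage list. Their median log2 change was -0.33, and 0 passed limma with or without the block.

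In neutrophils, S100A8 and S100A9 carry arachidonic acid to the NADPH oxidase, so the genes of this enzyme were set beside them. Of 11 measured genes of the oxidase and of arachidonic acid handling, 5 were higher and 1 lower in all 3 ewes. Over all transcripts tested, 23% were higher and 26.2% lower in all 3. The median log2 change of the 11 genes was 0.96 and ran from 0.55 to 0.98 under the other scalings. In limma 0 of them passed with or without the block. NCF4, which encodes the p40phox subunit, was at 90.8, 63.1 and 117 RPKM with linseed and 2.08, 18.7 and 52.4 RPKM with the control diet, with no overlap (2.58 ± 0.92, limma adjusted p = 0.266, or 0.0578 with the block). NCF1, the p47phox subunit, was higher in each ewe but overlapped between groups (2.78 ± 1.38). The lipoxygenase gene ALOX5, which starts leukotriene synthesis, was at 3.98, 4.45 and 10.3 RPKM with linseed and 0.326, 3.21 and 1.74 RPKM with the control diet.

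Among 9 measured transcription factors of myeloid cells, 1 was higher and 4 lower in all 3 ewes, against 23% and 26.2% of all transcripts tested. NFE2, a factor of megakaryocytes and granulocytes, was at 8.29, 9.43 and 23.5 RPKM with linseed and was listed at 0 in the control library of sheep 1, with 0.686 and 5.51 RPKM in those of sheep 2 and 3 (2.59 ± 0.77, limma adjusted p = 0.263, or 0.0427 with the block). CEBPA, a factor of granulocyte development, was higher in sheep 1 and 2 and near equal in sheep 3 (1.83 ± 0.77). KLF5 was lower in 3 of 3 ewes without overlap (-2.41 ± 0.78). It was at 0.435, 1.14 and 0.647 RPKM with linseed and 32.8, 3.13 and 4.42 RPKM with the control diet. KLF6 was lower in 3 of 3 as well, with overlap (-1.80 ± 0.79). The median log2 change of the 9 genes was -0.45. No other factor of the list passed limma in either fit.

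Calprotectin binds zinc and manganese, and the genes that handle these metals were compared too. Of 13 measured genes, 7 were lower and 1 higher in all 3 ewes, against 26.2% and 23% of all transcripts tested. Their median log2 change was -0.99 and ran from -1.38 to -0.83 under the other scalings. The importer gene SLC39A8 (ZIP8), which carries zinc and manganese into cells, was at 18.1, 7.04 and 1.19 RPKM with linseed and 322, 21.1 and 28.8 RPKM with the control diet (-3.10 ± 1.06). In limma its adjusted p was 0.264, or 0.0427 with the sheep as a block; no other gene of the list passed in either fit. SOD2, the manganese superoxide dismutase, was lower in 3 of 3 ewes (-1.85 ± 0.74), as were the zinc transporter genes SLC30A4 (-1.48 ± 0.55) and SLC30A7 (-1.72 ± 0.65).

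A list of chemokines and cytokines that act on neutrophils also held the pentraxin gene PTX3 and the receptor gene LTB4R. Of its 9 measured genes, 1 was higher in all 3 ewes, LTB4R, and 3 were lower, against 23% and 26.2% of all transcripts. CXCL8, a main attractant of neutrophils, was lower in 3 of 3 ewes, at 39.1, 48.0 and 474 RPKM with linseed and 246, 411 and 2263 RPKM with the control diet (-2.65 ± 1.05, limma adjusted p = 0.289, or 0.0441 with the block). The leukotriene B4 receptor gene LTB4R was higher in 3 of 3 ewes without overlap, at 3.99, 2.23 and 5.21 RPKM with linseed and 0.122, 0.365 and 1.21 RPKM with the control diet.

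The genes most like each chain over the 6 libraries were sought among 2495 genes with a symbol and a mean of at least 10 RPKM, by the root mean square difference of log2(RPKM + 1) profiles, each centred on its own mean. The closest to S100A8 were CALM3 (0.11 log2 units), which encodes the calcium sensor calmodulin, CCS (0.12), the copper chaperone of superoxide dismutase, MYG1, MRPS15, COPS6, TAF10, ECI1 and RNASEH2A (0.18). CALM3 was at 110.5, 77.8 and 70.6 RPKM with linseed and 12.3, 27.6 and 25.9 RPKM with the control diet, the same order of ewes under each diet as S100A8. The closest to S100A9 were NAA10 (0.14), an acetyltransferase subunit, AURKAIP1 (0.14), MAP2K2, GTF2F1, ATP5F1D, ASPSCR1, VAMP8, a vesicle fusion protein, and MRPS25 (0.20). NAA10 was at 207, 135 and 88.7 RPKM with linseed and 23.2, 35.9 and 27.2 RPKM with the control diet, highest in sheep 1 with linseed and in sheep 2 with the control diet, as S100A9 was. The 2 chains differed from each other by 0.37 log2 units, which placed S100A9 at rank 111 for S100A8 and S100A8 at rank 49 for S100A9. Libraries of the 2 diets share ewes and all differ in depth, so these distances are descriptions over 6 libraries.

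Both calprotectin transcripts are short, 517 nt for S100A8 and 712 nt for S100A9 as solved from the RPKM steps, and the median change of short transcripts was above that of long ones. When the tested transcripts were divided by length into 4 classes of nearly equal size, the median log2 change was 0.42 in the shortest class (103 to 1394 nt), 0.06 and -0.26 in the next 2 classes, and -0.48 in the longest. Transcripts of up to 800 nt had a median of 0.58, with 1.11, 0.32 and 0.47 in sheep 1, 2 and 3. Of these, 38.0% were higher with linseed in all 3 ewes, and in 23.9% every linseed library stood above every control library. After a trend on length was removed in each library, the log2 change was 1.72 ± 0.46 for S100A9 and 1.17 ± 0.42 for S100A8, with adjusted p of 0.183 and 0.202 in limma. In that setting S100A9 was at 10.60, 10.09 and 9.53 log2 units with linseed and 8.51, 8.18 and 8.36 with the control diet in sheep 1, 2 and 3. S100A8 was at 10.04, 9.69 and 9.78 log2 units with linseed and 8.42, 8.68 and 8.90 with the control diet. Quantile normalization gave log2 changes of 1.52 ± 0.47 for S100A9 and 1.12 ± 0.44 for S100A8. Under both settings the linseed and control values of each gene still did not overlap.

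**Figure D4:**
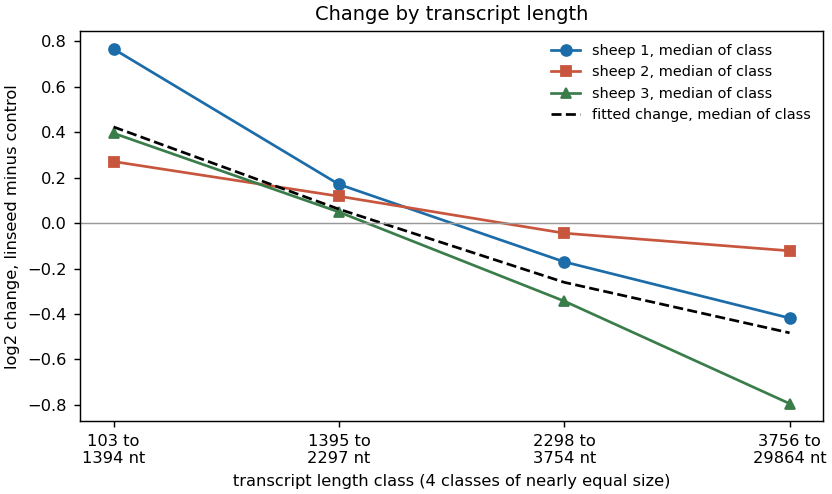
Median log2 change between linseed and control (y axis) of the tested transcripts in 4 length classes (x axis), within each ewe and as fitted by limma (dashed). The medians decline with length in all 3 ewes, and both calprotectin transcripts belong to the shortest class.

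The size of the calprotectin differences also depended on single ewes. Without both libraries of sheep 1 the log2 change was 1.93 ± 0.75 for S100A9 and 1.38 ± 0.74 for S100A8, and the interval of S100A8 then reached below 0. Without both libraries of sheep 2 it was 2.33 ± 1.03 for S100A9 and 2.10 ± 1.03 for S100A8. Without both libraries of sheep 3 it was 2.60 ± 0.70 for S100A9 and 2.07 ± 0.75 for S100A8. S100A9 had the larger change in each of these fits.

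**Figure D5:**
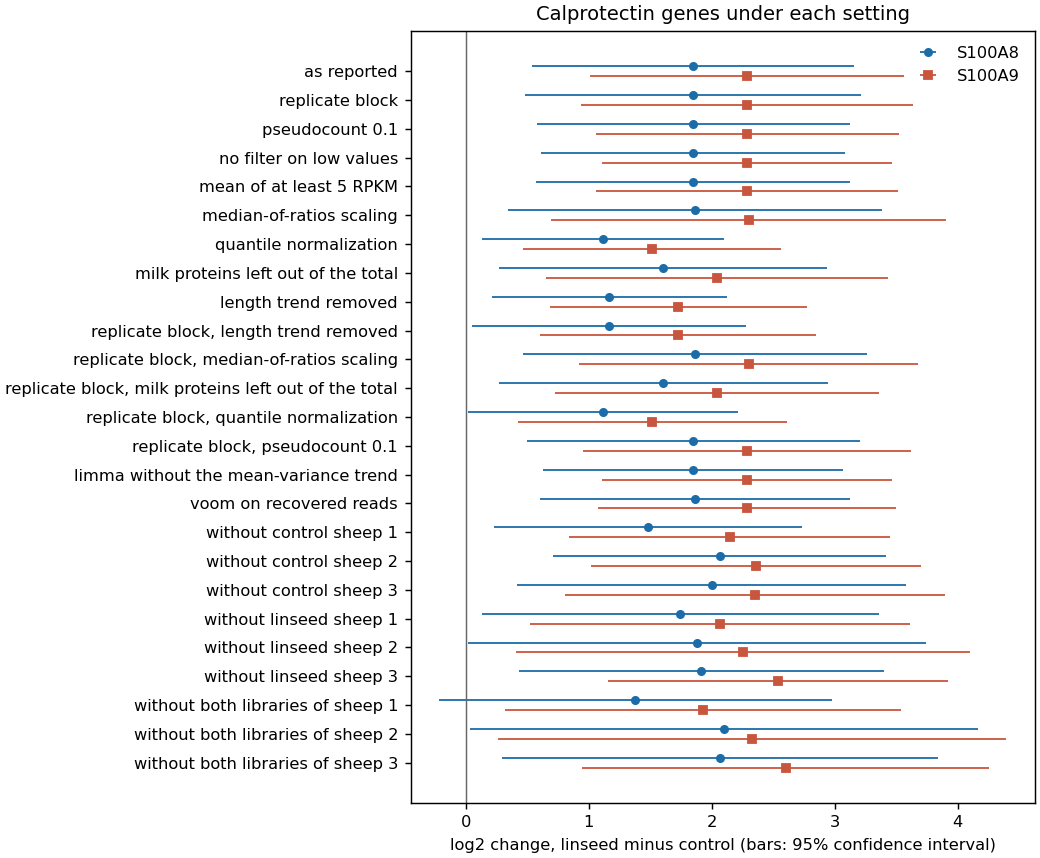
Log2 change of S100A8 and S100A9 between linseed and control with its 95% interval from limma, as reported and under each other setting. The estimates stay between 1.12 and 2.60, and the S100A8 interval reaches below 0 once, when both libraries of sheep 1 are left out.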

How the data were processed

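RNA of milk somatic cells was read in 6 libraries. The authors deposited 1 table with an RPKM value for each RefSeq transcript in each library. The submitters' processing notes name Trimmomatic 0.33; aligner, counter and genome build: not given in the sources used here. Samples were grouped by the letter of their titles, read with the series design. The same animal identifier stands under the same number in both groups.

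Gene symbols were looked up in a RefSeq table of assembly ARS-UI_Ramb_v3.0, which may differ from the authors' build and served for names and gene order alone; accessions were matched without version, 15836 of 49705 (31.9%). For a gene with several transcripts, the most abundant was used. Library totals, lengths and whole reads were solved from the RPKM steps (tolerance 0.002 reads). Counting intervals cover counting error only.

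Transcripts averaging 1 RPKM or more were compared as log2(RPKM + 1), a scale that understates the change of low genes, with limma 3.58.1 (R 4.3.3, mean-variance trend, Benjamini-Hochberg adjustment, threshold 0.05), without a block, and exact tests in scipy 1.17.1. The fit was tested on simulated data. The pairing rests on the animal identifiers; the 2 libraries of an ewe deviated from their groups' means with a correlation of 0.18, 0.25 and 0.40 in sheep 1, 2 and 3. The blocked fit is printed where it changes a count of calls.

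The genes studied, the 14 gene lists and the tests were chosen with earlier results of these data known. The rule named all S100 genes measured, up to 4 genes of smallest p in each list with defining markers of cell types, and the 8 nearest profiles of each gene. TLR4 and AGER, as the receptors, RHOA, CHI3L1, KRT14, KRT17, PAEP and genes at or near 0 were named after their values were seen. Genes that were not matched are not analysed here, 1 listed neutrophil gene counted in its list's summaries is not reported here by itself, in the text or the heatmap, and no sequences were used.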

Additional observations from a re-analysis of the deposited data

How the results depend on the processing

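The direction of both calprotectin genes and their side of the threshold were the same under all 24 other settings tried. In 22 of these limma called 0 transcripts of any gene, so the side of the threshold could not differ there. The block alone, the filters on low values and the mean-variance trend leave the log2 change as it is. Since the groups did not overlap, leaving out libraries could not turn the direction. The log2 change ran from 1.12 to 2.10 for S100A8 (adjusted p 0.0968 to 0.917 in limma) and from 1.52 to 2.60 for S100A9 (0.0598 to 0.917). Leaving out 1 library or both libraries of 1 ewe gave 1.38 to 2.10 for S100A8 and 1.93 to 2.60 for S100A9, the lowest without both libraries of sheep 1. In the paired fit, with the sheep as a replicate block, limma called 416 transcripts against 0 without it, and 152 with the replicate block and milk proteins left out of the total; with the block and quantile or median-of-ratios scaling, a pseudocount of 0.1 or the length trend removed it called 0. The cause was not tested. The block changed the call of neither calprotectin gene. The difference in the log2 ratio of S100A9 to S100A8 ran from 0.23 (without both libraries of sheep 2) to 0.66 (without control sheep 1), against 0.44 with all 6 libraries. Its sign did not change over 20 settings, many of which could not move it. The block leaves this difference as it is, and scaling a library by a single factor nearly cancels in the ratio. With 3 ewes, residual degrees of freedom are 4 without the block and 2 with it, and no exact test on 3 against 3 libraries can pass 0.05. Motif searches of the promoters were planned and not run.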
